A study of Mus musculus with 12 samples.

Results

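B lymphocytes came from spleens of mice aged 6 weeks, and their polyadenylated RNA was sequenced with a strand-preserving library kit. The comparison described here asked what the loss of PRPS2 changed in B cells that already carried the Eμ-Myc transgene. It set the 4 biological replicates labelled Eμ-Myc; PRPS2 KO, called the knockout libraries below, against the 4 labelled Eμ-Myc, 8 of the 12 libraries in all. Both groups carry the transgene, so it is shared background here and not part of the contrast. The other 4 libraries are WT B cells of the same age and tissue, without the transgene, and their levels are given only for orientation. In Eμ-Myc mice the Myc gene is driven by the immunoglobulin heavy-chain enhancer, so the excess of MYC is largely restricted to the B lineage and precedes lymphoma. The labels do not say which part of the PRPS2 gene was deleted, whether it was deleted in all cells of the animal, or whether the animals were littermates.

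PRPS2 is a phosphoribosyl pyrophosphate synthetase. It joins ribose 5-phosphate from the pentose phosphate pathway to ATP-derived pyrophosphate and so makes phosphoribosyl pyrophosphate (PRPP), the activated sugar from which cells build purine, pyrimidine and pyridine nucleotides. The other widely expressed isoform, PRPS1, catalyses the same reaction and is more strongly inhibited by purine nucleotides, and the associated proteins PRPSAP1 and PRPSAP2 assemble with both. MYC raises the transcription of many genes of nucleotide and ribosome synthesis, and PRPS2 is known as an enzyme that MYC-driven cells depend on.

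The deposited values are mean coverages per gene, which were scaled between libraries (scaled coverage below) and tested with limma on log2(scaled coverage + 0.5). Fold changes on that scale understate the change of genes with low coverage. The sum of deposited coverage ran from 1384522 to 1885768.9 over the 8 libraries, and 14900 to 15998 genes were above 0 in each. The read depth behind the values is unknown, so each value is given per library and the error is the spread between libraries. Xist was at most 0.1 and the Y-linked gene Ddx3y at least 38.8 in deposited coverage in all 12 libraries.

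The knockout libraries lay farther apart on average than the Eμ-Myc libraries did. As the median absolute log2 difference over the tested genes, the 6 pairs of knockout libraries were 0.0918 to 0.703 apart (mean 0.461) and the 6 pairs of Eμ-Myc libraries 0.106 to 0.303 (mean 0.230). Pairs share libraries, so these distances are a description with no test. Of the 12486 genes tested, 75.6% had a higher SD of log2 coverage over the knockout libraries. Knockout libraries 3 and 4 lay closest to each other, at a distance of 0.0918, and libraries 1 and 2 lay 0.192 apart, while libraries 1 and 3 lay 0.703 apart. Libraries 3 and 4 still differed for single genes, such as the neutrophil granule gene Ngp, at 247 in library 3 and 67.5 in library 4. Among the Eμ-Myc libraries, libraries 3 and 4 were also the closest pair, at 0.106, while libraries 1 and 2 were the farthest, at 0.303. Why knockout libraries 3 and 4 lay so close was not tested. The genes that the results turn on are therefore given library by library. With single libraries left out, the median log2 fold change of 14 of the 31 gene lists took both signs, so a list's median is read beside its values per library.

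T-cell, NK-cell and myeloid markers separated the knockout libraries in the same way. The 17 T-cell markers in the files summed to 1385, 1655, 110.2 and 105 in knockout libraries 1 to 4, against 263 to 360.3 in the Eμ-Myc libraries and 1128 to 6816 in WT. None of them was at 0 in a knockout library, but 8 of 17 read under 1 in library 3 and 8 of 17 in library 4, among them Cd3e, Cd4 and Cd8b1. The 12 NK-cell markers summed to 799, 638, 33.98 and 32.1 in the knockout libraries, with 135 to 314 in Eμ-Myc and 496 to 1968 in WT. The 20 myeloid markers summed to 21777, 16160.5, 4077 and 2273, with 7689 to 23591 in Eμ-Myc and 10938 to 34225 in WT. Knockout libraries 1 and 2 thus sat above the Eμ-Myc range for T- and NK-cell markers, and libraries 3 and 4 below it. In bulk RNA, fewer cells of a type and less RNA per cell cannot be told apart. The part of these other cells in the results below was not tested.

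With PRPS2 lost, 1 gene passed the test, Prps2 itself, which fell. That is 0.00801% of the 12486 genes tested (limma, Benjamini-Hochberg adjusted p under 0.05, two-sided). None passed in the higher direction. At an unadjusted p under 0.05 there were 117 genes, or 0.937%, of which 37 (0.296%) were higher and 80 (0.641%) lower in the knockout group. Leaving out knockout library 1 turned the 117 into 390, and leaving out Eμ-Myc library 3 turned it into 71. The groups of 4 did not overlap for 192 genes, or 1.54%, with 96 (0.769%) in each direction. The absence of further calls has a measurable width. For 9509 genes, or 76.2%, the 95% interval of the difference lay within 1 log2 unit of 0, and the median interval was 1.05 log2 units wide. For the remaining genes the interval reached beyond 1 log2 unit in at least one direction. The median log2 fold change over all tested genes was -0.03, and 43.3% of genes had a value above 0.

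**Figure D1:**
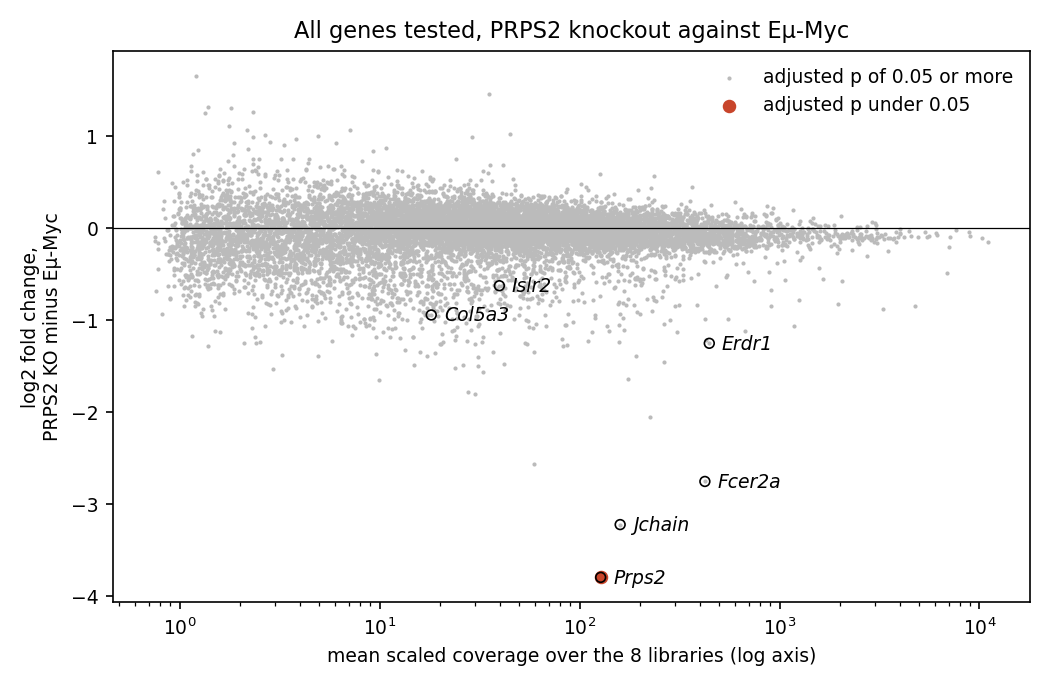
Log2 fold change of each of the 12486 tested genes, knockout minus Eμ-Myc, against the mean scaled coverage over the 8 libraries on a log axis. Prps2 is the filled point at -3.79, the single gene past the threshold; Jchain, Fcer2a, Erdr1, Col5a3 and Islr2, drawn as open circles, have a log2 fold change below 0 without passing.

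Prps2 lies on the X chromosome at chrX:167346322-167382749 on the minus strand (GRCm38). Its scaled coverage was 238, 192, 245 and 278 in Eμ-Myc libraries 1 to 4 and 17.7, 16.5, 16.6 and 15.7 in knockout libraries 1 to 4. WT libraries held 94.9, 135, 119 and 136. All 4 knockout libraries lay together and far below every Eμ-Myc and WT library, as their labels state. The log2 fold change was -3.79 (SE 0.13, 95% interval -4.09 to -3.49), with a limma adjusted p of 1.58e-05. The knockout mean was 6.96% of the Eμ-Myc mean and 13.7% of the WT mean. A mean over the whole gene does not show which part of the transcript the remaining coverage came from. The value was -3.84 without knockout libraries 1 and 2 and -3.75 without libraries 3 and 4, and it kept its call in both.

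The other isoform did not pass the test. Prps1 read 102, 98.4, 124 and 133 in the Eμ-Myc libraries and 62.9, 91.5, 176 and 187 in the knockout libraries. Knockout libraries 1 and 2 were below every Eμ-Myc library and libraries 3 and 4 above every one, so the mean difference was near 0 (log2 fold change 0.05, 95% interval -0.75 to 0.85). That interval leaves room for a rise of up to 0.85 log2 units, but the values show no uniform increase in the libraries that lost Prps2. Prps1l3, a related locus on chromosome 12 whose reads may be shared with Prps1, had the same order, with 50.6, 64.7, 99.0 and 106 in the knockout libraries against 61.2 to 82.1 in Eμ-Myc. Prps1l1, a testis-type paralog, read under 1 in all 8 libraries and was not tested.

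The associated proteins were close to their Eμ-Myc levels. Prpsap1 read 70.7, 86.2, 114 and 105 in the knockout libraries and 89.3, 112, 87.5 and 90.0 in Eμ-Myc, with a log2 fold change of -0.03, 95% interval -0.42 to 0.37. Prpsap2 read 367, 385, 491 and 495 against 418, 434, 508 and 456, with -0.07, 95% interval -0.40 to 0.26. For both, a change of 1 log2 unit in either direction lay outside the interval. Of the 5 tested genes of the PRPP synthesis list, 1 was called, and the other 4 all had intervals within 1 log2 unit of 0.

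Myc itself stayed high in every knockout library. It read 1765, 1509.6, 2229 and 1917 in Eμ-Myc libraries 1 to 4, 1064, 1664, 2922 and 3178 in knockout libraries 1 to 4 and 262, 236, 219 and 335 in WT. Knockout library 1 was the lowest of the 8 and still above all WT libraries, while libraries 3 and 4 were above all Eμ-Myc libraries. The log2 fold change of 0.13, 95% interval -0.66 to 0.92 was smaller than the spread, and its limma adjusted p was 1.00. Leaving out single libraries moved it between -0.09 and 0.43, so its sign is not fixed by these data. The coverage does not separate the transgene from the endogenous gene.

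**Figure D2:**
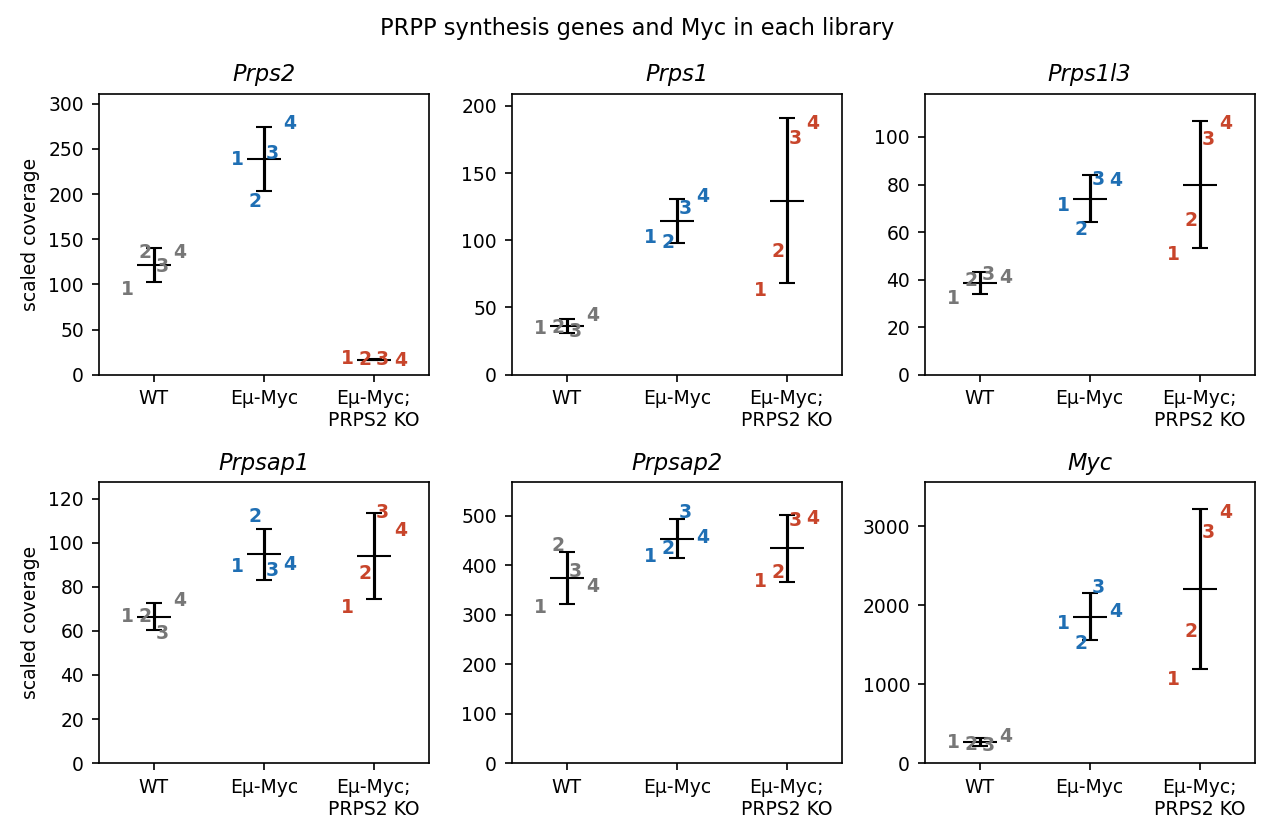
Scaled coverage of the PRPP synthesis genes and Myc in WT, Eμ-Myc and knockout libraries; digits are replicate numbers, horizontal bars the mean and vertical bars the SD (n = 4). Prps2 is between 15.7 and 17.7 in all knockout libraries, while Prps1, Prps1l3 and Myc spread wider there than in Eμ-Myc.

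Besides Prps2, 7 further genes were named for a lower level without overlap between groups, and none of them passed the test over all genes. Nearest to the threshold was Erdr1, erythroid differentiation regulator 1, with 613, 641, 615 and 622 in Eμ-Myc and 221, 318, 198 and 337 in the knockout libraries. The Eμ-Myc libraries were tightly grouped and no knockout library exceeded 337, close to the WT values of 157, 235, 131 and 239.9. Its log2 fold change was -1.25, 95% interval -1.68 to -0.82, with a limma adjusted p of 0.892. Erdr1 lies in the pseudoautosomal region, where X and Y carry the same sequence, so the reads assigned to it are uncertain. Col5a3, a collagen V chain, read 24.2, 22.2, 23.5 and 25.9 in Eμ-Myc and 13.7, 14.4, 9.78 and 11.5 in the knockout libraries (log2 fold change -0.94, 95% interval -1.29 to -0.59, limma adjusted p 0.945). Islr2, an immunoglobulin-superfamily membrane protein with leucine-rich repeats, read 44.8, 42.6, 49.4 and 56.4 and 26.4, 32.3, 33.3 and 32.5. For these genes the WT libraries were lower still or reached the knockout values, at 2.96 to 15.1 for Col5a3 and 3.42 to 21.97 for Islr2. The other 4 were Emid1, an extracellular matrix protein, the histone gene Hist3h2ba, Cox6b2, a tissue-restricted cytochrome c oxidase subunit, and Stard10, a phospholipid transfer protein. Their log2 fold changes ran from -0.82 for Hist3h2ba to -0.38 for Stard10, with limma adjusted p of 1.00.

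The 8 genes named for a higher level without overlap did not pass the test either. Ahnak, a giant scaffold protein of the membrane skeleton, read 32.6, 40.9, 50.6 and 51.7 in the knockout libraries against 29.95, 17.6, 30.9 and 31.1 in Eμ-Myc (log2 fold change 0.68, 95% interval 0.15 to 1.22). Zdhhc8, a palmitoyltransferase, had the narrowest range, at 15.5, 16.3, 16.8 and 16.5 against 14.4, 13.2, 11.5 and 11.2. Pfkp, a phosphofructokinase isoform of glycolysis, read 74.6, 83.0, 102 and 106 against 73.6, 70.8, 68.0 and 70.4. The others were the syntaxin Stx1a, the ubiquitin ligase Rnf125, the transcriptional repressor Spen, the kinesin Kif1b and the histone methyltransferase Kmt2d. The 8 log2 fold changes ran from 0.35 for Pfkp to 0.68 for Ahnak, and the limma adjusted p was 1.00 for each. Eμ-Myc library 2 was the lowest of the 8 libraries for Ahnak, Spen, Kif1b and Kmt2d, and without it their log2 fold changes ran from 0.32 for Spen to 0.49 for Ahnak.

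Genes beside Prps2 on the X chromosome were examined to see how far the difference extended from the deleted gene. The window of 5 Mb on either side was chosen after values had been seen. It held 49 genes of the files, of which 29 were tested, and of the 28 other than Prps2 none was called. The groups did not overlap for 1 of the 28, Erdr1, at a distance of 2.65 Mb, where 1.54% of all tested genes had no overlap. The median log2 fold change of the 28 was -0.08, beside -0.03 over all genes, and 19 of 28 had an interval within 1 log2 unit of 0. The nearest neighbour, the endosomal RNA receptor Tlr7, read 149, 128, 15.3 and 22.1 in the knockout libraries and 115, 70.9, 86.9 and 45.6 in Eμ-Myc, with a log2 fold change of -0.57 and an interval from -2.32 to 1.18. Its knockout libraries were thus split on both sides of the Eμ-Myc range. Apart from Erdr1, values ran from -0.57 for Tlr7 to 0.22 for Piga, which starts the synthesis of membrane glycolipid anchors.

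**Figure D3:**
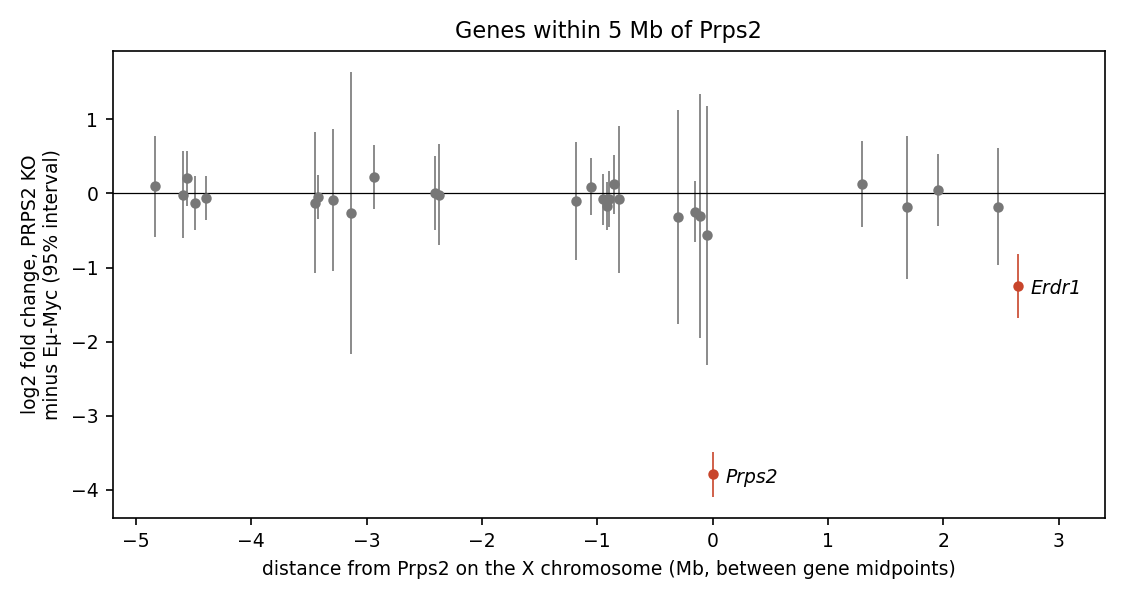
Log2 fold change, knockout minus Eμ-Myc, with its 95% interval for the 29 tested genes within 5 Mb of Prps2, against the distance between gene midpoints. Prps2 stands at -3.79 and Erdr1 at -1.25; the other genes lie between -0.57 and 0.22.

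The enzymes that use PRPP did not pass the test in either direction. Of the 7 PRPP-consuming enzymes 0 were called, their library medians were -0.70, -0.25, 0.49 and 0.41, their median log2 fold change was 0.0084, and 5 of 7 intervals lay within 1 log2 unit. Ppat, which commits PRPP to purine synthesis, read 60.3, 51.3, 77.3 and 76.4 in Eμ-Myc and 34.5, 54.7, 118 and 114 in the knockout libraries. Umps, which joins PRPP to orotate in pyrimidine synthesis, read 131, 141, 167 and 166 and 83.7, 116, 239 and 225. Hprt, which salvages hypoxanthine and guanine with PRPP, read 316, 388, 387 and 416 and 214, 263, 526 and 515. In all 3 of these enzymes knockout libraries 1 and 2 lay at the low end of or below the Eμ-Myc range and libraries 3 and 4 above it. Nampt, which uses PRPP to make the NAD precursor nicotinamide mononucleotide, varied less, at 42.9, 41.8, 56.3 and 58.6 against 46.5, 40.4, 46.5 and 45.2. Qprt and Naprt, the other enzymes of NAD synthesis in the list, had the reverse split at low levels, with Qprt at 4.43, 4.32, 1.08 and 0.860 against 1.83, 2.47, 1.19 and 1.09.

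Most, but not all, of the rest of nucleotide metabolism split the knockout libraries in the same direction. Libraries 1 and 2 were both below libraries 3 and 4 for 10 of 11 de novo purine genes, 11 of 14 pyrimidine genes and 9 of 13 genes of purine salvage and breakdown, and both above them for the others. The share of all tested genes with either order was not counted. Such counts, here and for the lists below, therefore have no baseline and do not set a list apart from other genes. For the 11 de novo purine genes the median difference from the Eμ-Myc mean was -0.65, -0.29, 0.51 and 0.50 log2 units in knockout libraries 1 to 4, where the same median over all tested genes was -0.02, 0.00076, 0.05 and 0.05. None of the 11 was called, 5 were above 0 and 6 below, and the median log2 fold change was -0.01. Paics, a bifunctional enzyme in the middle of the pathway, read 1679.9, 1662, 2005 and 2129.8 in Eμ-Myc and 1084, 1398, 2627 and 2627 in the knockout libraries. Impdh2, which directs inosine monophosphate to guanine nucleotides, read 338, 435, 385 and 412 and 233, 302, 555 and 562. For the 14 pyrimidine genes the library medians were -0.56, -0.28, 0.51 and 0.54, with 0 called. Cad, the multifunctional enzyme that starts that pathway, read 222, 166, 255 and 259 and 148, 197, 419 and 394. None of the 13 tested genes of purine salvage and breakdown was called. Of the 13, 11 had a log2 fold change below 0 and 2 above it, where 43.3% of all tested genes were above 0. The list's median log2 fold change was -0.09, with library medians of -0.41, -0.25, 0.17 and 0.07. Among the genes with the reverse split, Gda, guanine deaminase, read 59.9, 35.1, 3.33 and 1.93 in the knockout libraries against 28.5, 26.9, 11.7 and 10.6 in Eμ-Myc, and Xdh, xanthine dehydrogenase, 37.4, 30.4, 2.37 and 1.40 against 21.9, 18.8, 8.26 and 6.33. The others were Ampd3 and Dguok of the salvage list, Adssl1 of the de novo list, at 49.2, 38.6, 18.6 and 19.3, and Ctps2, Uckl1 and Upp1 of the pyrimidine list. The T-cell, NK-cell and myeloid marker sums had this reverse split.

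Serine and one-carbon genes, which supply the folate-bound carbons of purines and thymidylate, had the widest set of library medians among the metabolic lists. These were -0.82, -0.39, 0.57 and 0.57, and 0 of 12 were called. Shmt1, the cytosolic serine hydroxymethyltransferase, read 92.0, 101, 113 and 121 in Eμ-Myc, 45.5, 70.9, 175 and 169 in the knockout libraries and 8.13, 9.90, 11.5 and 10.6 in WT. Phgdh, the first enzyme of serine synthesis, read 237, 333, 327 and 336 and 157, 208, 477 and 451. Knockout libraries 1 and 2 therefore lay between WT and Eμ-Myc for these 2 genes and libraries 3 and 4 beyond Eμ-Myc. In 10 of the 12 genes libraries 1 and 2 were both below libraries 3 and 4, and in 2 both were above.

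The redox genes, which the series title names, also gave no call. The lists were 22 tested genes of the glutathione system, 16 of thioredoxin and peroxiredoxin, 23 of superoxide, catalase and the NRF2 axis, 10 sources of NADPH and 8 of the pentose phosphate pathway. Their median log2 fold changes were -0.11, -0.10, -0.15, 0.02 and 0.01 in that order, beside -0.03 over all genes. Library by library, the thioredoxin list had medians of -0.36, -0.33, 0.28 and 0.22 and the NADPH list -0.39, -0.26, 0.37 and 0.35, the split of most nucleotide genes. The pentose phosphate medians were -0.10, -0.15, 0.18 and 0.07 and the glutathione medians -0.22, -0.23, 0.14 and -0.10. The list of superoxide, catalase and the NRF2 axis had the reverse split, at 0.09, 0.02, -0.21 and -0.16. With single libraries left out, the median log2 fold change took both signs for the thioredoxin, NADPH and pentose phosphate lists. In the glutathione list 18 of 22 genes had a value below 0 and 4 above it, where 43.3% of all tested genes were above 0. Of its 22 intervals, 15 lay within 1 log2 unit of 0, beside 76.2% of all genes. Gpx1, the abundant cytosolic glutathione peroxidase, was the glutathione gene with the smallest p. It read 2127, 2091, 2049 and 2132 in the knockout libraries and 2157, 3049.5, 2378 and 2392 in Eμ-Myc, so all 4 knockout libraries were below all Eμ-Myc libraries, with a log2 fold change of -0.24, 95% interval -0.52 to 0.05 and a limma adjusted p of 1.00. Gpx1 was the 1 gene of the 22 whose groups did not overlap, where 1.54% of all tested genes had no overlap. Without Eμ-Myc library 2, the highest of the 8, the Gpx1 value was -0.14. Blvrb, a biliverdin reductase, read 280.1, 231, 312 and 333 against 299, 452, 384 and 331 and overlapped. Gclc, the catalytic subunit of glutathione synthesis, read 98.1, 107, 175 and 181 against 135, 104, 145 and 153.

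All 8 tested pentose phosphate genes and 8 of the 10 NADPH sources had intervals within 1 log2 unit of 0, beside 76.2% of all genes. G6pdx, glucose 6-phosphate dehydrogenase and the entry to the oxidative branch, read 131, 115, 110.3 and 103 in the knockout libraries against 109, 119, 99.9 and 94.4 in Eμ-Myc. Rpia, which makes the ribose 5-phosphate that PRPS2 consumes, read 117, 140.1, 212 and 198 against 150.1, 188, 169 and 188. Nadk, the kinase that makes NADP from NAD, read 448, 403, 310.2 and 303 against 367, 359, 302 and 278. Of the NRF2 axis, Nfe2l2, which encodes NRF2, read 56.9, 58.9, 44.6 and 45.9 against 53.4, 53.5, 47.9 and 44.1, and its target Nqo1 read 2.36, 1.21, 1.51 and 1.72 against 2.93, 1.76, 2.49 and 2.07. Neither the regulator nor these enzymes separated the groups. Cybb and Ncf1, subunits of the phagocyte NADPH oxidase, were the wide members of the list: Ncf1 read 517, 362, 41.8 and 23.4 in the knockout libraries against 291, 283, 164 and 166, and the knockout libraries had the order of their summed myeloid markers.

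**Figure D4:**
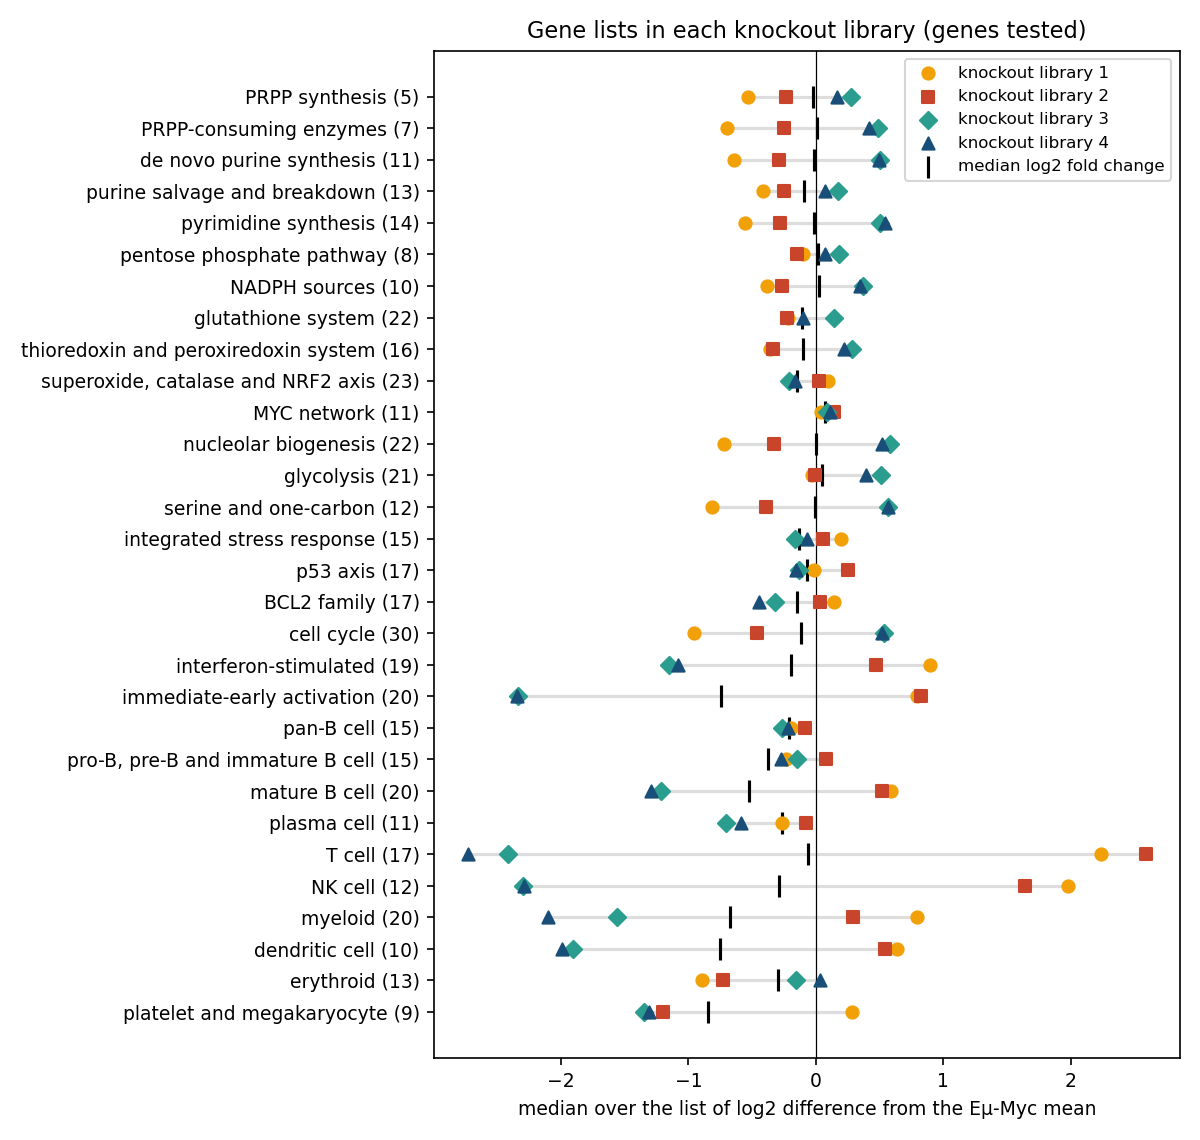
For each gene list (number of tested genes in brackets), the median log2 difference of each knockout library from the Eμ-Myc mean, and the median log2 fold change as a black bar. Libraries 1 and 2 lie left of 0 and libraries 3 and 4 right of 0 for cell cycle, nucleolar and nucleotide lists, the order is turned for interferon, immediate-early, mature B-cell, T- and NK-cell lists, and pan-B medians run from -0.27 to -0.09.

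Nucleolar and cell cycle genes had the split of most nucleotide genes, the reverse of that of the T-cell and NK-cell marker sums. In the knockout group, libraries 1 and 2 were both below libraries 3 and 4 for all 22 nucleolar genes and for 29 of 30 cell cycle genes, all but the cyclin D2 gene Ccnd2. The share of all tested genes with this order was not counted, and knockout libraries 1 and 3 lay 0.703 apart over all tested genes. The 22 nucleolar biogenesis genes had library medians of -0.72, -0.33, 0.58 and 0.52, a median log2 fold change of 0.0045, and 0 calls. Ncl, which encodes nucleolin, read 442, 434, 497 and 509 in Eμ-Myc and 304, 382, 669 and 649 in the knockout libraries. The 30 cell cycle genes had library medians of -0.96, -0.46, 0.54 and 0.52, with 0 of 30 called. Ccnb1, cyclin B1, read 87.3, 86.7, 128 and 131 in Eμ-Myc, 41.3, 62.9, 195 and 181 in the knockout libraries and 16.7, 6.99, 7.66 and 8.02 in WT. Mcm5, a subunit of the replicative helicase, read 448, 485, 609.7 and 583 and 269, 376, 750.2 and 780.2. For both genes libraries 1 and 2 were below all Eμ-Myc libraries and libraries 3 and 4 above all of them. In Eμ-Myc libraries 1 to 4 the nucleolar genes summed to 10118, 11675, 12391 and 12705. The cell cycle genes there summed to 7258.5, 7959, 8759 and 9119.9. The Eμ-Myc sums were thus also lower in libraries 1 and 2 than in libraries 3 and 4, with a narrower span. The SD of log2 coverage was higher in the knockout group for all 30 cell cycle and all 22 nucleolar genes, where 75.6% of all genes had that direction. Glycolysis genes were mixed, with 0 of 21 called, libraries 1 and 2 below libraries 3 and 4 for 13 and above them for 7. Ldha, lactate dehydrogenase A, was among the 13, at 1502, 1982, 4683 and 4634 against 2248, 2999, 3108 and 3132. The lactate exporter gene Slc16a3, at 86.3, 60.2, 10.2 and 6.98 against 42.4, 57.6, 15.0 and 10.8, and the hexokinase gene Hk3, at 220.0, 127, 24.9 and 20.8 against 120.5, 154, 79.7 and 48.4, were wider and among the 7, with the split of the myeloid marker sums.

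Partners and antagonists of MYC were mixed. The 11 tested genes of the MYC network had library medians of 0.04, 0.14, 0.09 and 0.11, with 9 of 11 intervals within 1 log2 unit. Max, the obligate partner of MYC, read 413, 451, 464 and 474 in the knockout libraries and 447, 466, 389.9 and 392 in Eμ-Myc. For 6 of the 11, libraries 1 and 2 were both above libraries 3 and 4, and for 4 both were below. The antagonist Mxd1 was the widest, at 77.4, 45.8, 7.63 and 6.88 against 35.8, 35.2, 17.3 and 14.1, and the paralog Mycl read 19.8, 11.3, 3.87 and 2.36 against 17.8, 13.4, 12.8 and 13.2. Mxd4, also an antagonist, read 90.2, 123, 51.6 and 53.9 against 99.8, 99.1, 87.2 and 93.4. None of the 17 tested genes of the p53 axis was called. Cdkn2a, whose product ARF restrains MDM2, read 11.5, 15.3, 29.4 and 28.2 against 22.8, 34.4, 32.0 and 31.0 and 1.82, 2.45, 2.64 and 1.41 in WT. All knockout libraries stayed above all WT libraries for this gene, and libraries 1 and 2 were below all Eμ-Myc libraries. Cdkn1a, the p53 target p21, read 21.8, 29.0, 36.1 and 35.6 against 26.8, 33.7, 39.1 and 28.4, and Trp53 read 461, 566, 582 and 615 against 571, 636, 524 and 583.

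Survival and stress genes gave 0 calls of 17 in the BCL2 family and 0 of 15 in the integrated stress response. Bcl2, the anti-apoptotic founder of the family, read 31.1, 27.8, 2.37 and 2.36 in the knockout libraries, 14.7, 11.4, 11.5 and 11.5 in Eμ-Myc and 45.2, 44.1, 51.8 and 68.9 in WT. Bcl2l11, which encodes the pro-apoptotic BIM, read 45.1, 55.3, 39.9 and 41.9 against 45.6, 36.0, 40.0 and 42.8. Atf4, the effector of the integrated stress response, read 512, 596, 542 and 569 against 552, 653, 629.8 and 556, with a log2 fold change of -0.11, 95% interval -0.37 to 0.16. Asns, a target of ATF4 that makes asparagine, read 18.5, 22.5, 73.9 and 66.9 against 28.2, 31.3, 40.8 and 38.5. Bcl2 and Asns thus split the knockout libraries in opposite orders, while Atf4 and Bcl2l11 varied less.

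The genes that distinguish Eμ-Myc from WT were used as a scale for the knockout libraries. They were defined by a limma adjusted p under 0.05 and a difference of 1 log2 unit or more between Eμ-Myc and WT, which 2814 genes, or 22.3% of 12636, met. The Eμ-Myc libraries enter both this definition and the knockout contrast, so positions are given as a description only. On this scale 0 is the WT mean and 1 the Eμ-Myc mean. Where an Eμ-Myc library was placed, that library was left out of the Eμ-Myc mean. The median position of the 1550 higher genes was 0.52, 0.73, 1.35 and 1.31 in knockout libraries 1 to 4, and 0.87 to 1.09 in the Eμ-Myc libraries. For the 1264 lower genes it was 0.36, 0.49, 1.76 and 1.77, with 0.74 to 1.21 in Eμ-Myc. Knockout libraries 1 and 2, which had the higher sums of T-cell, NK-cell and myeloid markers, lay between WT and Eμ-Myc for both sets. Libraries 3 and 4, with the lower sums, lay beyond Eμ-Myc. In library 1, 55.2% of the higher and 26.4% of the lower genes were nearer the Eμ-Myc than the WT mean, and in library 4 the shares were 98.8% and 99.7%. None of the 1550 higher genes or of the 1136 lower genes that could be tested was called in the knockout contrast.

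Single genes with the largest increases and decreases against WT had the same split. Bcat1, a branched-chain amino acid transaminase, read 0.456, 0.817, 0.729 and 0.650 in WT, 46.4, 43.9, 52.6 and 61.1 in Eμ-Myc and 19.5, 33.4, 106 and 103 in the knockout libraries. Uchl1, a deubiquitinase, read 2.89, 6.45, 4.56 and 5.42, 142, 237, 156 and 186 and 76.7, 107, 229.6 and 227. Hspa12b, a member of the HSP70 family, read 0 to 0.325 in WT, 16.8, 20.2, 17.3 and 19.6 in Eμ-Myc and 9.74, 12.7, 29.5 and 28.7 in the knockout libraries, and Ltbp4, a latent TGF-β binding protein, 28.5, 37.8, 43.9 and 52.7 in the knockout libraries. All 4 genes were above the WT libraries in every knockout library. Among the largest decreases, Dapl1 read 43.6, 24.1, 33.8 and 165 in WT, 3.11, 2.20, 3.28 and 4.15 in Eμ-Myc and 25.4, 27.9, 0 and 0 in the knockout libraries. The transporter gene Slc16a5, the T-cell gene Cd8b1 and Tdrp had the same split, with libraries 1 and 2 above all Eμ-Myc libraries and libraries 3 and 4 under 1. Cd8b1, a T-cell coreceptor, is itself one of the 17 T-cell markers summed above.

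**Figure D5:**
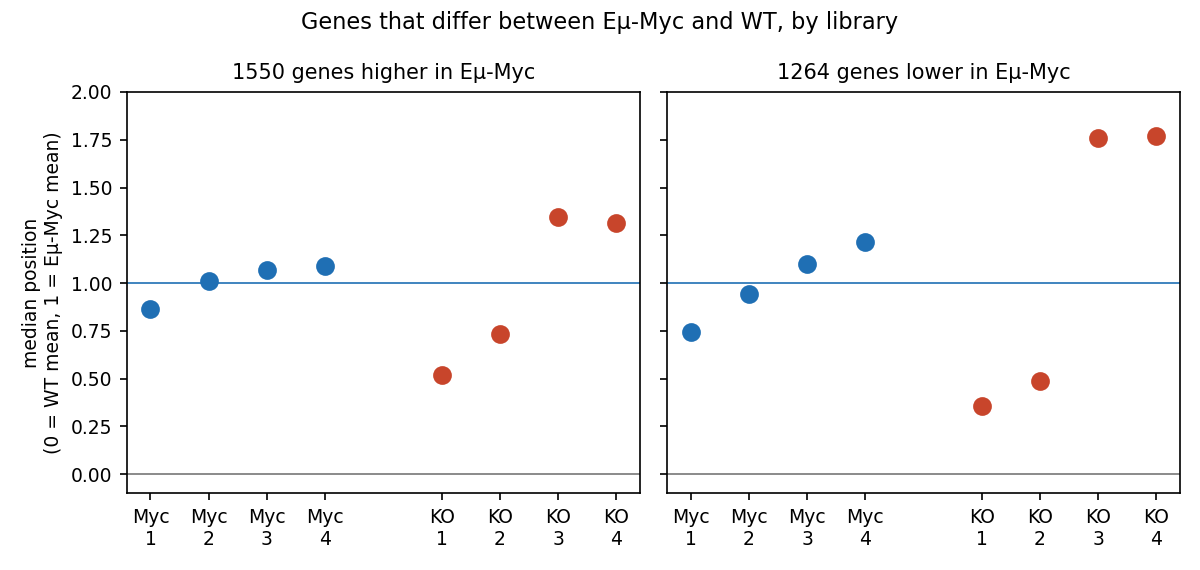
Median position of each Eμ-Myc and knockout library for the 1550 genes higher and the 1264 genes lower in Eμ-Myc than in WT, on a scale where the WT mean is 0 and the Eμ-Myc mean is 1. For each Eμ-Myc library, the Eμ-Myc mean leaves out that library. Knockout libraries 1 and 2 lie between 0.36 and 0.73 and libraries 3 and 4 between 1.31 and 1.77.

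Pan-B genes were covered in all 8 libraries, beside markers of other cells. The 15 pan-B genes summed to 20942, 21247, 15550 and 16081 in knockout libraries 1 to 4. In Eμ-Myc libraries 1 to 4 they summed to 21957, 25626, 19393 and 21692. The 20 myeloid markers summed to 21777, 16160.5, 4077 and 2273 in the knockout libraries and 14171, 23591, 10175 and 7689 in Eμ-Myc. Of the 15 pan-B genes in the files 0 were called, 14 of 15 intervals lay within 1 log2 unit of 0, and the library medians were -0.19, -0.09, -0.27 and -0.22. Cd79b, the signalling chain of the B-cell receptor, read 2334, 2454, 2498 and 2532 against 2732, 3702, 2663 and 3089.8, all 4 below all 4, with a log2 fold change of -0.30, 95% interval -0.59 to -0.01 and a limma adjusted p of 1.00. Cd79b had the smallest p of the 15 and was the 1 gene of them without overlap, beside 1.54% of all tested genes. Pax5, the factor that fixes B-cell identity, read 138, 148, 147 and 152 against 158, 131, 149 and 164. The widest member was Cd74, the invariant chain of antigen presentation, at 8822, 8458, 3361 and 3458 against 7992, 9234, 6493 and 6999.6, so knockout libraries 3 and 4 held the least.

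Genes of mature B cells separated the knockout libraries most among the B-cell lists. The 20 genes summed to 9377, 8488, 3193 and 3202 in knockout libraries 1 to 4, against 6351 to 7984 in Eμ-Myc and 11384 to 17548 in WT, with 0 calls and a median log2 fold change of -0.52. That median was -0.80 without knockout library 1 and -0.25 and -0.23 without library 3 or 4. Fcer2a, which encodes the IgE receptor CD23 of follicular B cells, read 979, 809, 3.55 and 2.58 in the knockout libraries, 624, 398, 271 and 301 in Eμ-Myc and 1649, 3129.8, 2865 and 1764 in WT. Cr2, the complement receptor CD21, read 63.9, 60.0, 0.108 and 0.322 in the knockout libraries and 41.7, 19.5, 15.1 and 19.9 in Eμ-Myc. The antigen-presenting gene H2-Ab1 read 1969, 1802, 886 and 907 against 1777, 2079, 1552 and 1653. Libraries 1 and 2 were above all Eμ-Myc libraries for Fcer2a and Cr2, and in libraries 3 and 4 both genes read under 4. The T-cell, NK-cell and myeloid marker sums also set knockout libraries 1 and 2 above libraries 3 and 4. In WT libraries 1 to 4 the mature B-cell sums were 12153, 17548, 15882 and 11384. The T-cell sums there were 2189, 1128, 1467 and 6816. In Eμ-Myc libraries 1 to 4 the mature B-cell sums were 7757, 7984, 6351 and 6608. There the T-cell sums were 360, 307, 338 and 263, the NK-cell sums 295, 314, 165 and 135. Myeloid sums were 14171, 23591, 10175 and 7689. A link between these sums was not tested.

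Precursor and plasma-cell genes were mixed. In the list of pro-B, pre-B and immature B cells 0 of 15 were called. Rag2, a subunit of the V(D)J recombinase, read 4.82, 6.53, 5.70 and 5.37 in the knockout libraries, 7.603, 9.08, 8.76 and 9.71 in Eμ-Myc and 0.182 to 0.454 in WT, with every knockout library below every Eμ-Myc library (log2 fold change -0.61, 95% interval -0.99 to -0.23, limma adjusted p 1.00). Rag2 had the smallest p of the 15 and was the 1 gene of them without overlap, beside 1.54% of all tested genes. Vpreb1, part of the surrogate light chain, read 3.05, 1.21, 3.12 and 2.47 against 2.66, 3.08, 5.97 and 8.62. Jchain, which links secreted IgM and IgA, read 178, 226, 1.94 and 2.36 in the knockout libraries against 189.9, 193, 205 and 280.4. Libraries 1 and 2 were near the Eμ-Myc range and libraries 3 and 4 far below it, and the log2 fold change of -3.22 had an interval from -6.79 to 0.35. Irf4, a factor of activated B and plasma cells, read 109.9, 132, 134 and 163 against 142, 102, 154 and 138.

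Immediate-early genes, which are switched on within minutes of a stimulus, formed a wide block in the knockout libraries. Their library medians were 0.80, 0.83, -2.34 and -2.35 log2 units from the Eμ-Myc mean, with 0 of 20 called and a median log2 fold change of -0.75. That median was -1.38 and -1.40 without knockout library 1 or 2 and -0.22 and -0.25 without library 3 or 4. Fos, a component of the AP-1 factor, read 483, 461, 30.6 and 14.9 in the knockout libraries, 256, 242, 375 and 256 in Eμ-Myc and 839, 30.2, 39.2 and 677 in WT. Dusp1, a phosphatase of MAP kinases, read 303, 288, 12.3 and 9.24, and Zfp36, which destabilises AU-rich messages, read 658, 703, 72.8 and 66.2 in the knockout libraries. Their Eμ-Myc libraries read 115, 152, 168 and 79.1 and 415, 354, 509 and 307. Btg2, an antiproliferative gene, had a narrower span, with 262, 248, 98.7 and 101 in the knockout libraries against 221, 189.5, 198 and 217 in Eμ-Myc. Knockout libraries 1 and 2 were thus above all Eμ-Myc libraries for Fos, Dusp1, Zfp36 and Btg2 and libraries 3 and 4 below all of them, the split also seen in the T-cell and NK-cell marker sums. The WT libraries also differed among themselves, since libraries 1 and 4 held far more Fos than libraries 2 and 3.

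The sequences upstream of 3 of these genes are shown because they carry elements through which such genes are classically induced. Each line is the 250 bases before the RefSeq start (GRCm38.p6), in the direction of the gene, with 1 matched element in capitals. That element is the cyclic AMP response element TGACGTCA for Dusp1 and Btg2 and a serum response element core, the CArG box, for Zfp36. All 3 genes lie on the minus strand, and these upstream windows are at chr17:26508473-26508722, chr1:134079156-134079405 and chr7:28379229-28379478, in the order of the lines.
Dusp1: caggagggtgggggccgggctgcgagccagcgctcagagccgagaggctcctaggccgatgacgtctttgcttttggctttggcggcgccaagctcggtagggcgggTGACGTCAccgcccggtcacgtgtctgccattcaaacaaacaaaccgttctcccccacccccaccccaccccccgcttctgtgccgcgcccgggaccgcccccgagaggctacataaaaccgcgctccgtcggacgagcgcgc
Btg2: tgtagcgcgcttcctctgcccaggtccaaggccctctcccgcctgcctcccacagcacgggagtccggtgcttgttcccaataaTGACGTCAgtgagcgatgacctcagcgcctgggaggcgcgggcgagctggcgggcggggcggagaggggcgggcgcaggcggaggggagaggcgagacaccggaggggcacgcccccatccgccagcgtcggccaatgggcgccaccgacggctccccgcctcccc
Zfp36: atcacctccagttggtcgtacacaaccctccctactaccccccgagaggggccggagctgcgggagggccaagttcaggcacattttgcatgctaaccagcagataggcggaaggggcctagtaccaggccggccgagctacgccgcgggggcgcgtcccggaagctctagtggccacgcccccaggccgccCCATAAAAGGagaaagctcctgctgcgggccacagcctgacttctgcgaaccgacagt
Both motifs read the same on both strands and were searched without mismatch in the window upstream. TGACGTCA was present for 3 of the 17 immediate-early genes with an entry (Btg2, Dusp1 and Nfkbid) and for 1.77% of 27025 genes, and the CArG box for 2 of 17 (Egr2 and Zfp36) and for 1.62% of genes. A match describes these letters only. Over the whole list, with or without a match, 19 of the 20 genes had a log2 fold change below 0 and 1 above it. Of all tested genes, 43.3% were above 0. The list's medians were above the Eμ-Myc mean in knockout libraries 1 and 2, at 0.80 and 0.83. They were below it in libraries 3 and 4, at -2.34 and -2.35, so the 19 signs do not describe all 4 libraries.

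Interferon-stimulated genes had the split of the immediate-early genes with a smaller span. Their library medians were 0.90, 0.47, -1.15 and -1.08, and 0 of 19 were called. The interferon-stimulated list summed to 1224, 1232, 867 and 875 in Eμ-Myc libraries 1 to 4, which is the same order. The immediate-early list did not share it there, at 2721.5, 2896.8, 3748.9 and 2460.6. Zbp1, a sensor of nucleic acids, read 49.2, 43.1, 2.80 and 2.58 in the knockout libraries against 29.95, 34.4, 18.2 and 15.9 in Eμ-Myc and 86.0, 83.6, 72.1 and 103 in WT. Isg15, a ubiquitin-like modifier, read 48.6, 32.5, 9.46 and 8.38 against 34.4, 41.9, 20.7 and 18.7. Bst2, a tetherin that B cells also express, went the other way, at 136, 155, 211 and 199 against 142, 222, 166 and 164.

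The genes with the largest spread over the knockout libraries came from several of these groups. They were Fcer2a, Ccr6, Cd8b1, Cr2, Jchain, Il9r, Tdrp and Als2cl, named by their SD and therefore given with no test. Ccr6, a chemokine receptor of mature B cells, read 143, 108, 0.215 and 0 in the knockout libraries and 94.9, 26.4, 48.2 and 53.8 in Eμ-Myc. Il9r, a cytokine receptor, read 57.8, 72.9, 0.538 and 0.322 against 37.6, 20.5, 24.2 and 26.5. Libraries 1 and 2 were above every Eμ-Myc library for each of them except Jchain, and libraries 3 and 4 read under 4 for all 8.

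Markers of myeloid cells, red cells and platelets gave 0 calls of 20, 13 and 9. Ngp read 2269, 1816, 247 and 67.5 in the knockout libraries and 1320.0, 2534, 626 and 621 in Eμ-Myc. Platelet genes were the list with the most members at an unadjusted p under 0.05, at 4 of 9 beside 0.937% of all genes, all lower. Pf4, platelet factor 4, read 44.5, 9.64, 8.17 and 11.1 in the knockout libraries, 53.6, 62.5, 36.1 and 22.8 in Eμ-Myc and 73.9, 141, 124 and 25.1 in WT (log2 fold change -1.50, 95% interval -2.76 to -0.23, limma adjusted p 1.00). Knockout library 1 overlapped the Eμ-Myc libraries for Pf4 and the other 3 lay below them. The haemoglobin gene Hbb-bs, whose near-identical copies share reads, read 47.4, 40.4, 50.7 and 48.0 against 62.6, 42.1, 251 and 131 in Eμ-Myc. The 13 erythroid markers summed to 386, 309, 468 and 481 in the knockout libraries, with libraries 1 and 2 both below libraries 3 and 4 for 8 genes and above them for none. The platelet genes did not share 1 order: libraries 1 and 2 were both above libraries 3 and 4 for 4 of the 9, among them the integrin gene Itgb3, at 13.9, 11.4, 2.04 and 1.93 against 9.34, 6.61, 7.36 and 5.46, and the other 5 were mixed.

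The number of called genes depended on which knockout libraries were kept and on how the libraries were weighted. Why it changed was not tested. Leaving out knockout libraries 1 and 2 gave 3429 calls, leaving out libraries 3 and 4 gave 523, and each of the other 4 pairs left out gave 1, Prps2. These fits were added after values had been seen, cover all 6 pairs, and leave 2 knockout libraries each. Prps2 was called in all 6, with log2 fold changes from -3.84 to -3.75. Weighting each library by its estimated quality in limma, with all 8 kept, gave 7458 calls, of which 3922 were higher and 3536 lower. The weights were lowest for knockout libraries 1 and 2, at 0.0813 and 0.128, and highest for library 4, at 7.84.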

How the data were processed

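Polyadenylated RNA of splenic B cells was sequenced from directional libraries, per the labels' protocols, and each library took its group from its title. For every library the authors deposited a coverage value (a signal with 1 decimal, the mean over the gene) for 24982 gene symbols. The submitters' processing notes name mm10, DESeq and R 4.3.3 without a role; the aligner, the counting and the annotation are not given in the sources used here. The values are not counts and the depth is unknown, so no count model or counting interval was used.

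The 8 libraries were scaled to each other by an unweighted trimmed mean of log ratios, which drops 30% of the ratios and 5% of the mean values on either side. Genes at 1 or more in at least 4 libraries were tested with limma 3.58.1 (trend, robust) on log2(scaled coverage + 0.5) in R 4.3.3. The method was tested on simulated data, but the outcome is not given here, so no result rests on it. Figures used Python 3.11.15 and matplotlib 3.10.9. Positions of Myc and the PRPP synthesis genes come from GENCODE on GRCm38. Positions and distances of the genes near Prps2 come from the RefSeq genes (GRCm38.p6), where 24417 symbols matched. Promoter sequences are also from RefSeq (GRCm38.p6).

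Genes were named by a rule. It took Myc and the PRPP list; the 8 with the smallest p in each direction whose groups did not overlap, at a mean coverage of 8 or more and without Gm, Rik, Mir, Snor and sex-linked symbols; the 8 with the largest SD over the knockout libraries; the 2 with the smallest p of each list; the 4 largest increases and decreases against WT; and members of a list with a wide spread or a defining role. The members and lists were chosen with earlier results of these data known. Same-numbered libraries of both groups deviated together (r across genes 0.66, 0.19, 0.26 and 0.61, all over 0.1; 4 of 24 matchings met this). The numbers entered an alternative fit as a replicate block. This pairing comes from the values alone, and since other matchings met the criterion too, it is not established. Other alternatives changed the scaling, pseudocount, filter, libraries and weights. Single-gene results for 2 list members are not reported here. A permutation test planned for the distances between libraries was dropped, since the distances share pairs.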

Additional observations from a re-analysis of the deposited data

Results flagged for a closer look

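Of 188 groups of 4 libraries looked at, 11 held a library set apart from the other 3 by Dixon's criterion, and chance marks about 1 in 20. In Eμ-Myc library 2, Prpsap1 read 111.8 (the others 87.5 to 90.0), Ahnak 17.6 (29.96 to 31.1) and the neutrophil elastase gene Elane 141 (37.1 to 52.6). Eμ-Myc library 1 held 17.8 for Mycl (12.8 to 13.4) and 8.98 for the dendritic-cell receptor Xcr1 (5.57 to 6.11). Ppp1r15a, a phosphatase subunit of the stress response, read 89.3 in Eμ-Myc library 3 (47.6 to 54.0), and Jchain 280.4 in Eμ-Myc library 4 (189.9 to 205). Among knockout libraries, library 1 held 26.4 for Islr2 (32.3 to 33.3) and 44.5 for Pf4 (8.17 to 11.1). Cox6b2 read 42.8 in knockout library 2 (52.3 to 53.7), and the purine phosphorylase gene Pnp2 read 2.47 in knockout library 3 (1.31 to 1.504).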

How the results depend on the processing

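The count of 1 called gene, Prps2, was the same under median-of-ratios and total coverage scaling, pseudocounts of 0.1 and 2, no filter or a filter of 10, all 12 libraries in one fit or in the scaling, neither trend nor robust, and each library left out. Over those single omissions the log2 fold change of Prps2 ran from -3.89 to -3.72. With the replicate block it kept -3.79 at a limma adjusted p of 0.00237, and the block changed no other call. Library quality weights called 7458 genes. Leaving out knockout libraries 1 and 2 gave 3429 calls and leaving out libraries 3 and 4 gave 523, both chosen after seeing the data. The set of genes that differ between Eμ-Myc and WT fell from 2814 to 1410 with a filter of 10, an alternative added likewise. Why that set shrank was not tested.

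No gene that changed sign was called in the main test, and the cause was not tested. Total coverage scaling gave Prpsap1 0.0018. A pseudocount of 0.1 gave Dapl1 -0.97, and one of 2 gave Cd8b1 0.26, Tdrp 0.40 and Als2cl 0.32. Quality weights gave Prpsap1 0.26, Prpsap2 0.037, Qprt -0.29, Ada 0.087, Pgls 0.18, Atf5 0.037, Ccnd2 -0.25, E2f2 0.13, Thy1 -0.29, Zap70 -0.25, Kdm5d -0.028, Uty -0.065, Uchl1 0.45, Hspa12b 0.65, Ltbp4 0.25, Dapl1 -2.86 and Slc16a5 -1.19. With each library left out in turn, the log2 fold change ran from -0.17 to 0.34 for Prps1, from -0.10 to 0.25 for Prps1l3, from -0.13 to 0.094 for Prpsap1 and from -0.087 to 0.43 for Myc. It ran from -0.31 to 0.49 for Bcat1, -0.26 to 0.25 for Hspa12b, -0.18 to 0.10 for Ltbp4 and -0.96 to 0.98 for Dapl1. The last ranges were -0.0098 to 0.22 for Uty, -1.18 to 1.05 for Tdrp, -1.55 to 0.77 for Cd8b1, -1.23 to 0.86 for Als2cl and -1.21 to 0.18 for Klrd1. Depth is unknown, so the precision rests on 4 libraries a group.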
